A study of Mus musculus with 6 samples.

Results

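Wnt ligands, their receptors and the regulators of Wnt signalling were followed across 6 arrays of primary mouse myoblasts. The members were the genes named Wnt, Fzd, Sfrp, Dkk or Rspo with a number, together with a set of co-receptors, R-spondin receptors, cytoplasmic components and TCF/LEF factors. They were chosen by symbol among the probe sets that the platform annotation ties to exactly 1 gene. This gave 63 genes on 133 probe sets, of 18194 genes on the 34958 probe sets with exactly 1 symbol. The arrays held 45101 probe sets in all. The symbol Fzd10os, an antisense transcript with 2 probe sets, was not counted as a Frizzled gene, and Tcf7 was not found among the singly named probe sets. Of the 63 genes, 41 passed a filter on low signal and were tested.

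Wnt proteins are secreted lipid-modified ligands that bind Frizzled receptors together with the co-receptors Lrp5 and Lrp6. In the canonical branch this stops a cytoplasmic complex of Axin, Apc and the kinase Gsk3b from marking beta-catenin for destruction, and beta-catenin then acts in the nucleus with TCF/LEF factors. Other branches run without beta-catenin, through Ror receptors, small GTPases and calcium. In skeletal muscle, Wnt signals are known to induce myogenic factors in the embryo, to expand satellite cells and to act on myoblast differentiation and fusion.

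In 3 samples the myoblasts had been infected with a lentivirus carrying the vector Tet-pLKO-puro with a short hairpin RNA (shRNA) that targets LncMyoD, a non-coding transcript studied in muscle differentiation. The other 3 samples were controls, and the labels do not say what these received. All 6 samples carry an age of 21 days, and whether cells were collected in growth or differentiation medium is not given in the sources used here. The labels call the replicates biological without naming separate animals or cultures, so p-values reflect variation among the arrays alone, and part of it may be technical. LncMyoD itself is not analysed here, so the group names rest on the labels. Values are the authors' normalized log2 signals, with a median of 7.23 on every array, and arrays of the same group correlated at 0.996 to 0.997 over probe sets, against 0.987 to 0.990 between groups.

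Of the 41 tested genes, 13 rose and 12 fell in the shRNA samples and 16 did not pass the threshold, an adjusted p of 0.05 in limma's test over all tested probe sets. These 25 genes are 61.0% of those tested, near the 58.5% called among all 12408 genes, of which 35.7% were higher and 22.8% lower. A share so near that of all genes is no result about the Wnt genes. The counts by role and family below stand beside these same shares and were not tested. With each array centred on the median of its tested probe sets, the split became 10 higher and 14 lower. For all genes it became 3627 higher and 3663 lower, against 4426 and 2832 as deposited. The median difference of the members was 0.033 on the log2 scale, against 0.046 for all genes, and their median absolute difference was 0.23 against 0.21. Counted by probe set, 23 of the 77 tested rose and 21 fell, while 53.9% of all probe sets were called, 30.4% higher and 23.5% lower. Of 14 called members with more than 1 tested probe set, 9 had another that did not pass. Arrays of the 2 groups did not overlap in 25 of the 41, against 64.8% of all genes. A difference of at least 2-fold was seen in 4 members, Lgr5, Sfrp1 and Fzd4 upward and Tcf7l1 downward, beside 3.77% of all genes.

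**Figure D1:**
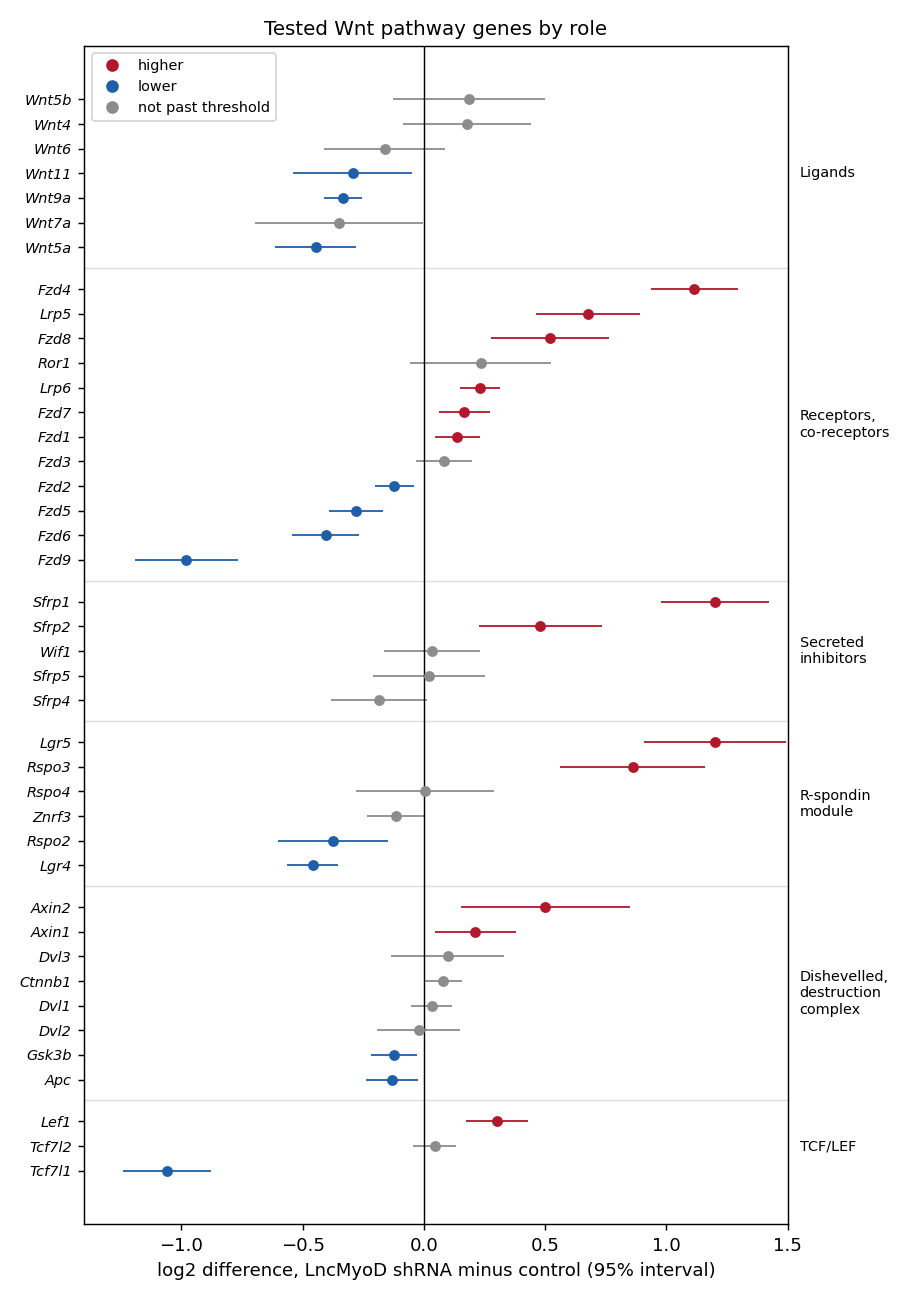
Log2 difference of each of the 41 tested genes (shRNA minus control, horizontal axis) with its 95% interval, grouped by role; red genes were higher, blue genes lower and grey genes not past the threshold. Lgr5, Sfrp1 and Fzd4 lie above 1, Tcf7l1 lies below -1, and receptors lie on both sides of 0.

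Among the 19 ligand genes, 7 could be tested, and 3 of these fell while 4 did not pass in limma's test on their brightest probe sets. Wnt5a, the best known ligand of the branch without beta-catenin, had log2 signals of 8.46, 8.38 and 8.53 on the shRNA arrays, against 8.88, 8.92 and 8.91 on the control arrays. The groups did not overlap, and the difference was -0.45 (SE 0.077, adjusted p = 0.000314, a 1.36-fold decrease). A further probe set of Wnt5a fell by 0.39 (adjusted p = 0.00637), and another, near the filter, stood at -0.07 (adjusted p = 0.688). The remaining probe set of Wnt5a, below the filter and not tested, went the other way. It had 5.62, 5.65 and 6.05 in shRNA samples, against 5.55, 5.00 and 5.09 in controls. Wnt9a, a ligand of joint and skeletal development, had signals of 12.58, 12.57 and 12.65 in shRNA samples, against 12.93, 12.93 and 12.95 in controls. Its difference of -0.33 (SE 0.036, adjusted p = 5.16e-06) was small in fold, 1.26, but large beside the spread within the groups.

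Wnt11, which guides cell movement and myocyte orientation in the embryo, stood at 6.95, 6.97 and 7.16 in shRNA samples and 7.21, 7.44 and 7.32 in controls, a difference of -0.29 (SE 0.11, adjusted p = 0.0435). This call was not past the threshold without shRNA array 1 (-0.26, adjusted p = 0.114) or 2 (-0.26, 0.121), or without control array 2 (-0.24, 0.162) or 3 (-0.29, 0.0935), and its adjusted p ranged from 0.0209 to 0.162 over the alternatives. Wnt4 (0.18, 95% interval -0.08 to 0.44), Wnt6 (-0.16, -0.41 to 0.09) and Wnt7a (-0.35, adjusted p = 0.0824) did not pass. Wnt7a, a ligand that expands satellite cells through Fzd7, ranged from 6.54 to 7.21 on shRNA arrays and from 7.05 to 7.39 on control arrays, so the groups overlapped. It was past the threshold without shRNA array 2 (-0.51, adjusted p = 0.0159) or control array 1 (-0.44, 0.0438). For Wnt5b, a relative of Wnt5a, the probe sets disagreed. The probe set that stood for the gene did not pass (0.19, adjusted p = 0.303), though it did without shRNA array 2 (0.35, adjusted p = 0.0474). The other, brighter but of the class open to cross-hybridization, had 7.67, 7.76 and 7.80 in shRNA samples against 7.02, 6.92 and 6.81 in controls (0.83, adjusted p = 2.49e-05). With both averaged Wnt5b stood at 0.51 (limma adjusted p = 0.00118).

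Of 12 tested receptors and co-receptors, 6 rose and 4 fell, or 83.3% called, beside 58.5% of all genes. With the arrays centred on the median of tested probe sets, 4 rose and 4 fell. Fzd4, a receptor of Norrin as well as of Wnts, had signals of 10.21, 10.31 and 10.14 in shRNA samples, against 9.28, 9.07 and 8.96 in controls. Every shRNA array was above every control array, and the difference was 1.12 (SE 0.083, adjusted p = 1.99e-07, 2.17-fold). Fzd9, a receptor of the same subfamily, went the other way, with 7.98, 7.77 and 7.68 in shRNA samples, against 8.78, 8.70 and 8.89 in controls. The groups did not overlap here either, and the difference was -0.98 (SE 0.098, adjusted p = 2.88e-06, a 1.97-fold decrease).

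The sequences before the starts of these opposed receptor genes are shown because the genes are close relatives with opposite differences. Each is the 250 bases upstream of the annotated start, from RefSeq's GRCm38.p6 annotation, 5′ to 3′ on the gene's strand. Fzd4 lies on the plus strand at chr7:89404116-89404365 and Fzd9 on the minus strand at chr5:135251048-135251297. Capitals would mark the letters CTTTG, the core of the site that TCF/LEF factors bind, or the E-boxes CAGCTG and CACCTG, of the kind that myogenic factors bind, on either strand; neither sequence held any.
Fzd4: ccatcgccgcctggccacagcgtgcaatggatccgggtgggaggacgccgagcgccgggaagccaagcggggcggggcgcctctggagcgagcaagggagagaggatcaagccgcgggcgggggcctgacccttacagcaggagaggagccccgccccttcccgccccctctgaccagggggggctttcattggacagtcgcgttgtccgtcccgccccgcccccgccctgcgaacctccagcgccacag
Fzd9: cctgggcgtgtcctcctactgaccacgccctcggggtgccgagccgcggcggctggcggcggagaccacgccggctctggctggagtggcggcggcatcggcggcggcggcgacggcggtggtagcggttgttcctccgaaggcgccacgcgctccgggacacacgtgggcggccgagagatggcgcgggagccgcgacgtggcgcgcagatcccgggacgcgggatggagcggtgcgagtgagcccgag
Both windows are rich in G and C, at 72.8% in Fzd4 and 76.4% in Fzd9, against a median of 52.4% over all such windows.

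The Frizzled genes were called in both directions. Of 10 genes 9 were tested, and 4 rose and 4 fell, beside 35.7% higher and 22.8% lower among all genes. Frizzleds fall by sequence into the subfamilies Fzd1, Fzd2 and Fzd7; Fzd5 and Fzd8; Fzd4, Fzd9 and Fzd10; and Fzd3 and Fzd6. Fzd8 had 9.62, 9.45 and 9.51 in shRNA samples, against 9.13, 8.70 and 9.20 in controls (0.52, SE 0.11, adjusted p = 0.00169), and its other probe set rose by 0.46. Its relative Fzd5 had 10.38, 10.41 and 10.34 in shRNA samples, against 10.67, 10.59 and 10.70 in controls (-0.28, SE 0.052, adjusted p = 0.000541). On its other probe set Fzd5 did not pass (-0.26, adjusted p = 0.0724). In neither gene did the groups overlap, although control array 2 stood lower than the other controls for Fzd8. Fzd6, which acts in planar cell polarity, had 10.04, 9.94 and 9.96 in shRNA samples, against 10.50, 10.35 and 10.29 in controls (-0.41, SE 0.064, adjusted p = 0.000157). On its other tested probe set Fzd6 did not pass (-0.21, adjusted p = 0.132). For its relative Fzd3 the brightest probe set did not pass (0.08, adjusted p = 0.214), but 4 of its 6 probe sets rose, by 0.35 to 0.45, and with all probe sets averaged Fzd3 stood at 0.33 (limma adjusted p = 0.000306).

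Differences were smaller among Fzd1, Fzd2 and Fzd7. Fzd7, a receptor of Wnt7a on satellite cells, rose by 0.17 (SE 0.048, adjusted p = 0.0106) and Fzd1 by 0.14 (SE 0.043, adjusted p = 0.0159), while Fzd2 was lower, at -0.12 (SE 0.036, adjusted p = 0.0131). With the arrays centred on the median of tested probe sets neither Fzd7 (0.10, adjusted p = 0.0966) nor Fzd1 (0.07, 0.116) passed. Fzd7 was also not past the threshold without shRNA array 3 (0.12, adjusted p = 0.0515) or control array 2 (0.13, 0.0518), and its adjusted p ranged from 0.00299 to 0.0966 over the alternatives. Fzd1 was not past it without shRNA array 2 (0.12, adjusted p = 0.0710) or control array 2 (0.12, 0.0678) or 3 (0.12, 0.0533), within a range of 0.00445 to 0.627. A dimmer probe set of Fzd1 stood at -0.20 (adjusted p = 0.0696), and with its probe sets averaged the gene stood at -0.03. Fzd2 was not past it without shRNA array 2 (-0.11, adjusted p = 0.0611), within a range of 0.00100 to 0.0766. Of the 3 probe sets of Fzd2, 2 fell and 1 did not pass (-0.18, adjusted p = 0.0871).

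**Figure D2:**
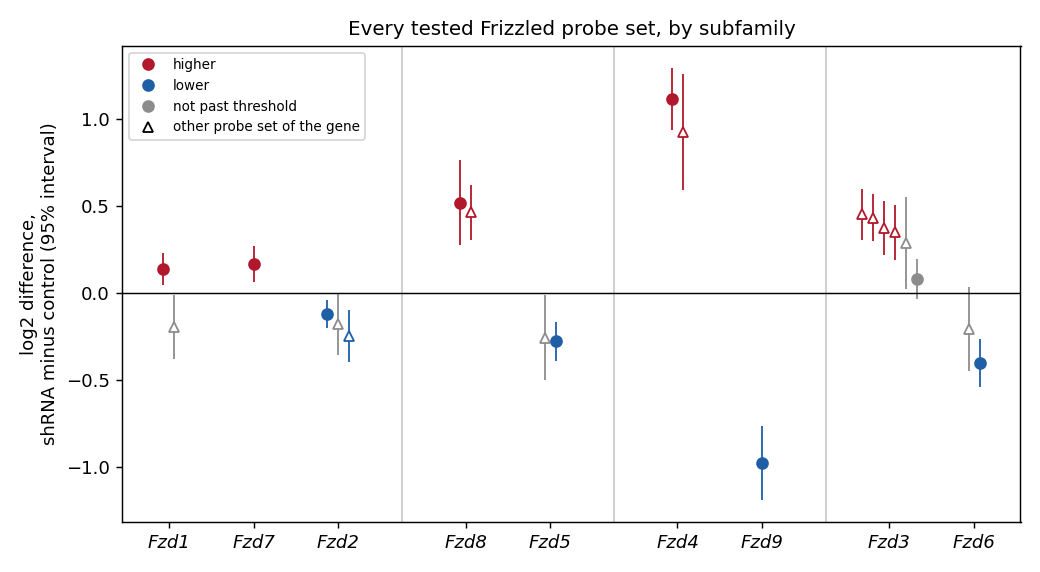
Log2 difference (shRNA minus control, vertical axis) with its 95% interval for every tested Frizzled probe set, with subfamilies separated by grey lines; filled circles stand for the gene and open triangles are its other probe sets. Fzd4 and Fzd8 lie above 0 on each probe set, Fzd9, Fzd5, Fzd6 and Fzd2 below 0, and the 2 probe sets of Fzd1 lie on opposite sides.

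Both Lrp co-receptors of the canonical branch rose. Lrp5 had 9.00, 9.04 and 8.96 in shRNA samples, against 8.55, 8.15 and 8.27 in controls (0.68, SE 0.099, adjusted p = 7.99e-05, 1.60-fold). Lrp6 had 12.67, 12.74 and 12.72 in shRNA samples, against 12.43, 12.49 and 12.51 in controls (0.23, SE 0.038, adjusted p = 0.00021), with its other probe set at 0.37. The groups did not overlap for either gene. Ror1, a receptor tyrosine kinase that binds Wnt5a, did not pass (0.23, 95% interval -0.06 to 0.53).

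Secreted inhibitors keep Wnts from their receptors, and 2 of the 5 tested rose. Sfrp1, a soluble Frizzled-like protein, had signals of 8.63, 8.57 and 8.67 in shRNA samples, against 7.62, 7.31 and 7.33 in controls. The gap between the groups was several times the spread within them, and the difference was 1.20 (SE 0.10, adjusted p = 7.18e-07, 2.30-fold). Of its 4 other probe sets, the only tested one did not pass (0.32, adjusted p = 0.259), with overlapping groups. The rest lay below the filter and were not tested. A probe set of the class open to cross-hybridization averaged 6.18 in shRNA samples and 5.35 in controls, and another 6.43 and 5.86, both without overlap. The groups overlapped on the remaining probe set of Sfrp1, at 5.35 and 5.19. Sfrp2, its close relative, had 6.85, 6.77 and 6.82 in shRNA samples, against 6.28, 6.28 and 6.44 in controls (0.48, SE 0.12, adjusted p = 0.00369). The control mean of Sfrp2, 6.34, lay below 6.50, the mean signal over the 6 arrays from which probe sets were tested. Sfrp4 (-0.18, adjusted p = 0.108), Sfrp5 (0.02, 95% interval -0.21 to 0.25) and the Wnt-binding protein Wif1 (0.03, 95% interval -0.17 to 0.23) did not pass. Sfrp4 passed with the arrays centred (-0.25, adjusted p = 0.0348) and without shRNA array 3 (-0.27, adjusted p = 0.0376).

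R-spondins are secreted proteins that bind Lgr receptors and thereby keep the ubiquitin ligases Znrf3 and Rnf43 from removing Frizzleds. Within this module, 2 of 6 tested genes rose and 2 fell. Lgr5, a receptor that marks stem cells of several epithelia, had 7.59, 7.49 and 7.58 in shRNA samples, against 6.61, 6.36 and 6.09 in controls. The groups were far apart, with a difference of 1.20 (SE 0.14, adjusted p = 7.96e-06, 2.30-fold), though the control mean, 6.35, again lay below 6.50. Its relative Lgr4 fell, with 11.47, 11.52 and 11.64 in shRNA samples, against 12.01, 11.97 and 12.03 in controls (-0.46, SE 0.048, adjusted p = 4.25e-06, 1.37-fold). The other tested probe set of Lgr4, near the filter, did not pass (-0.16, adjusted p = 0.324).

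The ligands of these receptors were also split. Rspo3 had 8.50, 8.46 and 8.53 in shRNA samples, against 7.97, 7.62 and 7.30 in controls (0.86, SE 0.14, adjusted p = 0.000167, 1.82-fold). The shRNA arrays lay close together, at an SD of 0.036, and the controls were spread more widely, at 0.34. Rspo2 had 6.96, 7.08 and 6.98 in shRNA samples, against 7.46, 7.36 and 7.33 in controls (-0.37, SE 0.10, adjusted p = 0.00852). Rspo4 (0.00, 95% interval -0.28 to 0.29) and Znrf3 (-0.12, adjusted p = 0.0879) did not pass. Znrf3 passed with the arrays centred (-0.18, adjusted p = 0.00639) and without control array 3 (-0.16, adjusted p = 0.0287).

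**Figure D3:**
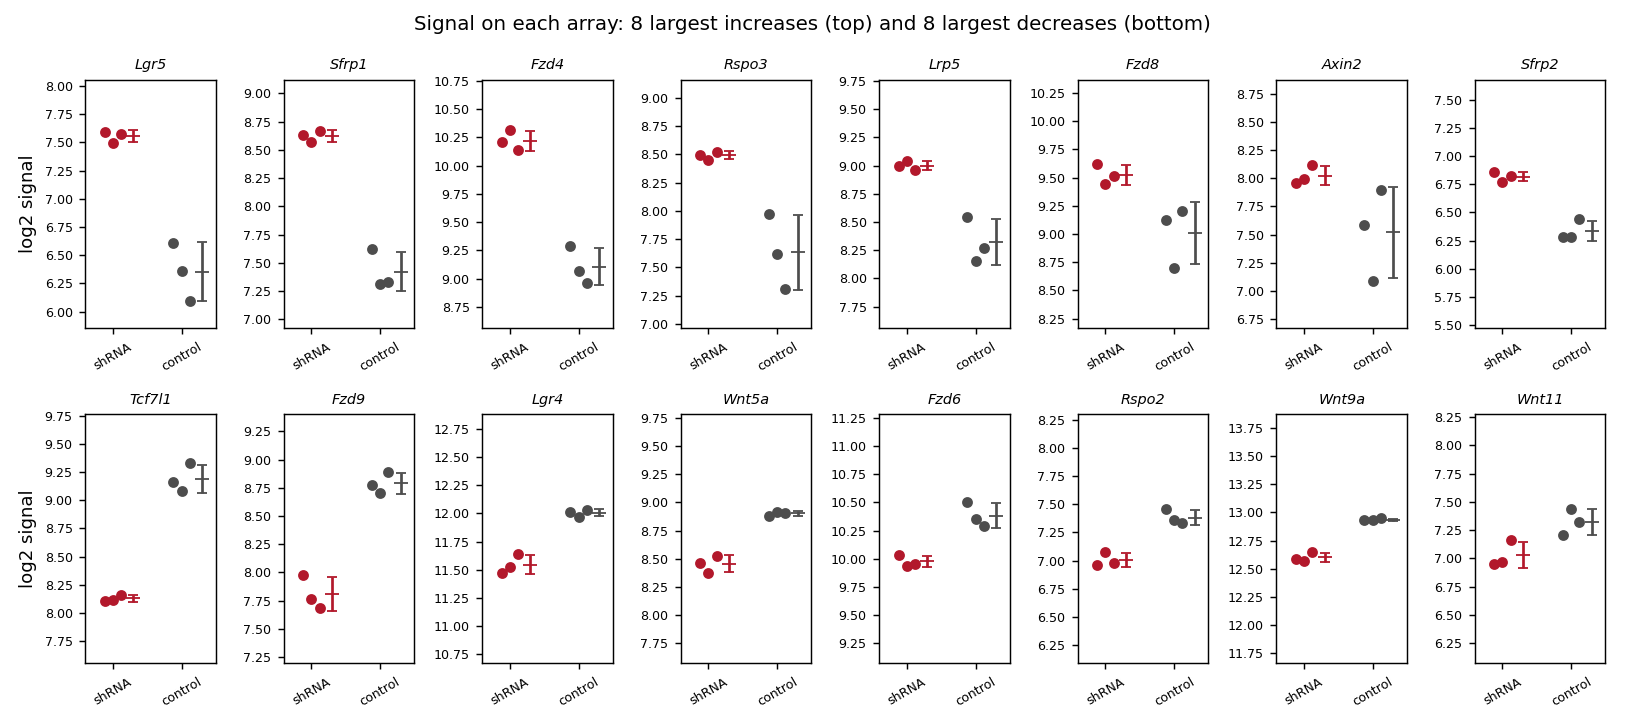
Log2 signal on each array (points) with the group mean and SD beside them (n = 3 each), for the 8 largest increases in the top row and the 8 largest decreases in the bottom row among members past the threshold without overlap; each panel spans the same number of log2 units. The shRNA points lie wholly above the controls in the top row and wholly below them in the bottom row, and the controls of Rspo3 and Axin2 are spread the most.

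Of 8 tested genes for Dishevelled proteins, the destruction complex and beta-catenin, 2 rose and 2 fell. Axin2, a scaffold of the destruction complex that is itself a common target of canonical Wnt signalling, had 7.96, 7.99 and 8.12 in shRNA samples, against 7.58, 7.09 and 7.89 in controls. The lowest shRNA array was only just above the highest control, and the difference was 0.50 (SE 0.16, adjusted p = 0.0185, 1.42-fold). Without control array 2 it was 0.29 (adjusted p = 0.0738) and without shRNA array 3 it was 0.45 (adjusted p = 0.0586), within a range of 0.00268 to 0.0738 over the alternatives. Ctnnb1, beta-catenin, had 13.87, 13.94 and 13.95 in shRNA samples, against 13.90, 13.83 and 13.80 in controls, a difference of 0.08 (SE 0.037, adjusted p = 0.0852). Its other probe sets, of lower signal, both rose by 0.17 (adjusted p = 0.0048 and 0.0326). The gene passed when its probe sets were averaged (0.14, adjusted p = 0.0114), without shRNA array 1 (0.10, 0.0328) or without control array 1 (0.11, 0.0235).

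Gsk3b, the kinase that phosphorylates beta-catenin, was at 13.28, 13.42 and 13.47 in shRNA samples, against 13.52, 13.52 and 13.51 in controls (-0.12, SE 0.044, adjusted p = 0.0315). Every shRNA array was below every control, and all 6 of its probe sets fell, with differences of -0.09 to -0.68. On the probe set that stood for the gene the call was not past the threshold without any single array other than shRNA array 3. Those differences were -0.07 without shRNA array 1 (adjusted p = 0.130), -0.14 without shRNA array 2 (0.0536), and -0.12, -0.12 and -0.13 without control arrays 1, 2 and 3 (0.0536, 0.0669 and 0.0735). With all 6 probe sets averaged Gsk3b stood at -0.34 (limma adjusted p = 2.94e-05), the lowest adjusted p of its alternatives.

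The tumour suppressor Apc, the large scaffold of the complex, was at 10.84, 10.91 and 10.96 in shRNA samples, against 11.05, 10.98 and 11.07 in controls (-0.13, SE 0.049, adjusted p = 0.0385), with 2 of its 4 probe sets lower. It was not past the threshold without shRNA array 1 (-0.10, adjusted p = 0.163) or 2 (-0.13, 0.0834) or control array 1 (-0.12, 0.0673) or 3 (-0.11, 0.111), within a range of 0.00632 to 0.176. Axin1, the limiting scaffold, was at 9.77, 9.63 and 9.92 in shRNA samples, against 9.64, 9.50 and 9.55 in controls, so the groups overlapped (0.21, SE 0.077, adjusted p = 0.0342). It was not past it without shRNA array 1 (0.21, adjusted p = 0.0720) or 3 (0.14, 0.165), or without control array 2 (0.18, 0.112) or 3 (0.20, 0.0820), within a range of 0.0110 to 0.165. The other probe set of Axin1 did not pass (0.11, adjusted p = 0.395). The Dishevelled genes, which relay the signal from Frizzleds, did not pass. Dvl1 stood at 0.03 (95% interval -0.05 to 0.12), Dvl2 at -0.02 (-0.19 to 0.15) and Dvl3 at 0.10 (-0.13 to 0.33).

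The TCF/LEF factors, which bring beta-catenin to DNA, held the largest decrease among the members. Tcf7l1, often a repressor of target genes, had 8.11, 8.12 and 8.16 in shRNA samples, against 9.16, 9.08 and 9.32 in controls. The groups stood about a full log2 unit apart, at -1.06 (SE 0.084, adjusted p = 3.55e-07, a 2.08-fold decrease), and the other probe set of Tcf7l1 fell by 0.85. Lef1, mostly an activator with beta-catenin, had 12.31, 12.48 and 12.51 in shRNA samples, against 12.24, 12.11 and 12.05 in controls (0.30, SE 0.059, adjusted p = 0.000835, 1.23-fold). Its arrays did not overlap between the groups, although shRNA array 1 and control array 1 were close. Tcf7l2 did not pass on any of its 4 probe sets (0.05 on the brightest, 95% interval -0.04 to 0.13).

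The windows before the starts of Lef1 and Tcf7l1 are shown because these factors bind the same kind of site and moved in opposite directions. Lef1 lies on the plus strand at chr3:131110047-131110296, the most upstream of its 4 annotated starts, and Tcf7l1 on the minus strand at chr6:72789046-72789295 (RefSeq, GRCm38.p6). Capitals mark the core CTTTG on either strand, found 1 time in each, and neither window held CAGCTG or CACCTG.
Lef1: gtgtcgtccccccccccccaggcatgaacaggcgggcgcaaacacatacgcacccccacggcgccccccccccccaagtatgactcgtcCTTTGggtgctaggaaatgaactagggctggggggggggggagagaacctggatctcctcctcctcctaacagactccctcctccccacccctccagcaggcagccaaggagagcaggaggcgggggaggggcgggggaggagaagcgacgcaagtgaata
Tcf7l1: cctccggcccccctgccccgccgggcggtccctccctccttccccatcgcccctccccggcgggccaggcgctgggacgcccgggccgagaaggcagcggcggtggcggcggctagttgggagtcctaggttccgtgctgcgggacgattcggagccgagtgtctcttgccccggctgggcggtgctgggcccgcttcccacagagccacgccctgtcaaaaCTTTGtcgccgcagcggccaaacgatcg
Windows were found for 43 of the 63 members, and in the counts that follow a gene holds a spelling if any of its annotated starts does. Lef1 is counted through starts other than the one shown for the longer TCF/LEF spellings and for the E-boxes, neither of which is in the window printed. The longer TCF/LEF spellings CTTTGAA or CTTTGAT or CTTTGTT or CTTTGTA, each of which contains the core, occurred in 2 of 6 genes that rose, 1 of 7 that fell and 2 of 13 that did not pass, beside 16.8% of all 27025 genes with a window. The core alone occurred in 3 of 6, 3 of 7 and 5 of 13, beside 52.2% of all genes, and the 2 E-box spellings in 1 of 6, 2 of 7 and 6 of 13, beside 30.6%. These are matches of letters in short windows, with no measurement of binding.

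The 22 members that could not be tested had mean signals of 4.84 to 6.50 over the 6 arrays on their brightest probe set. They comprise Wnt1, Wnt2, Wnt2b, Wnt3, Wnt3a, Wnt7b, Wnt8a, Wnt8b, Wnt9b, Wnt10a, Wnt10b and Wnt16 among the ligands, with Fzd10, Ror2, Rspo1, Rnf43, Dkk1, Dkk2, Dkk3, Dkk4, Nkd1 and Nkd2. No detection call was used here, so whether these transcripts were present was not tested. In 3 of them the arrays of the groups did not overlap, beside 19% of all 5785 genes below the filter. Rspo1, an R-spondin with a role in muscle differentiation in mice, had 5.41, 5.45 and 5.36 in shRNA samples, against 5.06, 4.95 and 5.01 in controls. Dkk1, which blocks Lrp5 and Lrp6, had 6.28, 6.42 and 6.36 against 6.23, 6.11 and 6.15, and Wnt2b had 5.13, 5.22 and 5.19 against 4.99, 5.03 and 5.11, in each case shRNA samples before controls.

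Other genes of the pathway were counted in 5 lists, with 133 genes tested when each is taken once: 43 rose, 42 fell and 48 did not pass. This is 63.9% called, near the 58.5% of all tested genes. The counts by list that follow stand beside 35.7% higher and 22.8% lower among all genes, and no list was tested. Except where centring is named, they are for the values as deposited. Centring the arrays changed the split of all genes from 4426 higher and 2832 lower to 3627 and 3663. Among 13 genes of ligand secretion and of the cell surface 5 rose and 1 fell. Apcdd1, a membrane inhibitor of Wnt signalling, averaged 7.76 ± 0.019 in shRNA samples and 6.52 ± 0.20 in controls (log2 signal, SD, n = 3 each), and rose by 1.24 (SE 0.12, adjusted p = 2.26e-06). Tspan12, a Fzd4 partner, rose by 0.37 and Tmem88 by 0.50, while the glypican Gpc6 stood at -0.58. Porcn (-0.11, adjusted p = 0.143) and Wls (0.08, adjusted p = 0.130), needed to make and export Wnts, did not pass.

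Among 30 destruction complex genes and scaffolds 8 rose and 11 fell, or 4 and 13 with the arrays centred. Frat2, which binds Gsk3 and keeps it from Axin, averaged 9.13 ± 0.11 in shRNA samples and 7.92 ± 0.070 in controls, and rose by 1.21 (SE 0.087, adjusted p = 1.43e-07). The phosphatase subunit Ppp2cb (0.56) and the tankyrase Tnks2 (0.36) also rose. Csnk1e, a casein kinase that phosphorylates Dishevelled, averaged 9.21 ± 0.23 in shRNA samples and 10.37 ± 0.21 in controls, a difference of -1.16 (SE 0.11, adjusted p = 2.56e-06). The Dishevelled-binding protein Dact1 (-0.59) and Amer1 (-0.29), which recruits Axin to the membrane, fell. Among 22 nuclear partners 7 rose and 8 fell. The Groucho corepressors went both ways, with Tle1 higher (0.77, SE 0.067) and Tle4 lower (-0.57, SE 0.043). The kinase Tnik (0.73) and the corepressor Ctbp2 (0.23) rose, while Crebbp (-0.22), a coactivator, and the kinase Hipk2 (-0.27) fell.

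Of 33 genes of the beta-catenin-independent branch 4 rose and 14 fell, or 54.5% called, with a median of -0.048. Over all tested genes 58.5% were called, with a median of 0.046. The polarity scaffold Scrib averaged 10.48 ± 0.018 in shRNA samples and 11.71 ± 0.0023 in controls, a difference of -1.23 (SE 0.042, adjusted p = 4.05e-10). Camk2d, a calcium-dependent kinase, followed at -1.19 (SE 0.050) and the protein kinase C gene Prkca at -0.68 (SE 0.044). The 3 increases with the smallest p were those of the polarity cadherin Celsr2 (0.50), the calcium-dependent transcription factor Nfatc1 (0.26) and the phospholipase Plcb3 (0.18).

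Of 37 tested genes reported elsewhere as targets of beta-catenin and TCF/LEF, members left out, 20 rose and 9 fell, or 78.4% called, with a median of 0.21, beside 58.5% called and a median of 0.046 over all tested genes. Many of these genes also answer to other signals, and no test of the list was made. The adhesion molecule Nrcam averaged 8.37 ± 0.042 in shRNA samples and 5.97 ± 0.11 in controls (2.41, adjusted p = 3.1e-09), the control mean again lying below 6.50. Ccnd1, cyclin D1 (0.87), and the hyaluronan receptor Cd44 (0.84) rose, whereas the aryl hydrocarbon receptor Ahr (-1.55) and the matricellular genes Ccn2 (-0.83) and Ccn5 (-1.05) fell. Of the 8 members that also belong to this list, Axin2, Lef1, Fzd7 and Lgr5 rose as given above, Znrf3 did not pass, and Dkk1, Nkd1 and Rnf43 could not be tested.

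**Figure D4:**
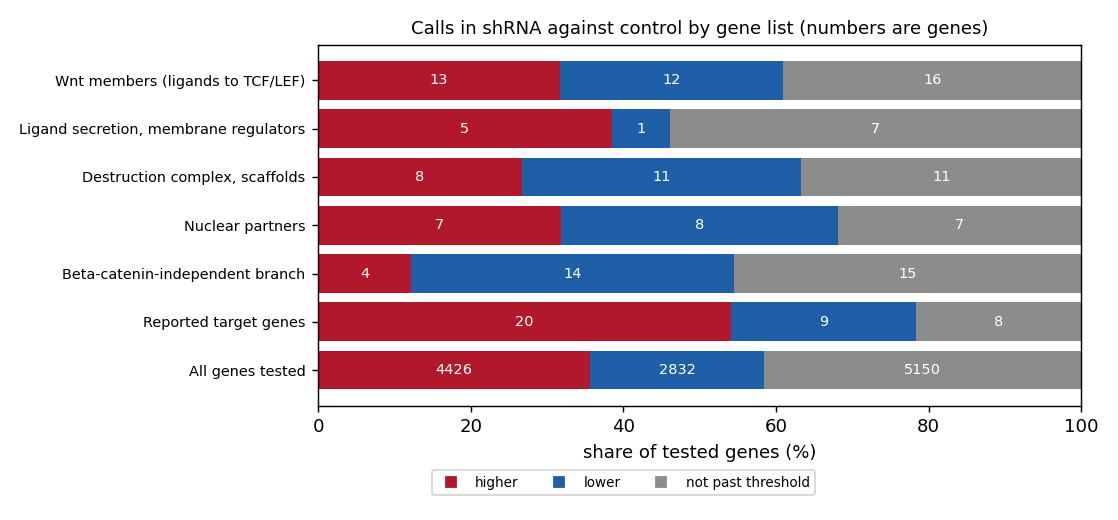
Share of tested genes (horizontal axis, %) that were higher in shRNA samples (red), lower (blue) or not past the threshold (grey), with the number of genes in each segment. The members divide into 13, 12 and 16, close to the shares of all genes, the beta-catenin-independent list has 14 lower against 4 higher, and the list of reported targets has 20 higher against 9 lower.

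Markers of cell types were counted beside the 58.5% called among all genes. Of 10 satellite cell and myoblast markers, all tested, 6 rose and 1 fell, and their summed linear signal was 71540 to 74880 in shRNA samples, against 64760 to 68280 in controls. Of 8 differentiated muscle markers 5 fell and 3 did not pass, with sums of 106200 to 109400 against 112400 to 117000 (shRNA samples before controls). Those that fell were Ckm (-1.41), Actn2 (-0.64), Myh3 (-0.15), Myog (-0.13) and Acta1 (-0.09). Mylpf (0.02), Tnnt2 (-0.02) and Tnnt3 (0.02) did not pass. Mean log2 signals of all 8 muscle markers over the 6 arrays ran from 9.82 (Ckm) to 14.48 (Mylpf), with Myog at 14.07. The highest value of any probe set was 14.64. Of 11 fibroblast markers found, 5 were tested, of which 1 rose, Pdgfra (0.89), and 3 fell, with sums of 7793 to 8274 against 9715 to 10320. The sum lay mostly in Pdpn (-0.29) and Col3a1 (-0.51), at mean log2 signals of 12.72 and 10.60 over the 6 arrays. Col1a1 (-0.42) also fell, and Tcf21 (0.11) did not pass. All 7 endothelial and all 4 adipocyte markers lay below the filter. Of the 7 leukocyte markers found, 3 were tested. Cd68 rose by 0.33, with a control mean of 6.40, below 6.50, while Csf1r (-0.02) and Lyz2 (-0.01) did not pass. Of 6 pericyte and smooth muscle markers, 5 were tested and Notch3 alone passed, with sums of 2528 to 2617 against 2029 to 2166. Most of the change in the sum lay in Notch3, which rose by 0.41 on the log2 scale, and the other 4 tested, Pdgfrb (-0.04), Kcnj8 (-0.29), Cspg4 (0.10) and Myh11 (0.17), did not pass. Of 4 glial and neuronal markers found, 2 were tested and Tubb3 fell. No marker was listed at 0. RNA integrity was followed by the 3′ to 5′ log2 ratio of control probe sets, and it was higher in shRNA samples by 0.044 for actin and 0.085 for GAPDH (two-sided exact permutation p = 0.1 for each, the smallest that 20 assignments allow). The part of these shifts in the differences of the Wnt genes was not tested, and in bulk RNA fewer cells of a type and less RNA per cell cannot be told apart.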

How the data were processed

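Transcripts of 3 LncMyoD shRNA samples and 3 controls were measured on whole-genome Affymetrix mouse arrays. The values are log2 signals per probe set, normalized and deposited by the authors; a range of 4.48 to 14.6 shows the log scale. PLIER and MAS5 are named in the submitters' processing notes, with no version or role. Columns left without a sample numbered 0. Arrays have no read depth, so the 3 arrays per group limit the precision.

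Of the probe sets, 34958 had 1 symbol in GEO's platform annotation, 932 several and 9211 none. After 64 control probe sets, the dimmest 40% by mean over all arrays (18014) were dropped, leaving 27023 with a mean of at least 6.50. A gene is represented by its probe set of highest mean, with those ending in _x_at used only where no other was left. The functions lmFit and eBayes (with a variance trend) of limma 3.58.1, run in R 4.3.3, gave shRNA minus control, with Benjamini-Hochberg adjustment over all tested probe sets. SE and 95% intervals are limma's. Array values were given for the 10 largest non-overlapping increases and decreases past the threshold and for core genes; of each further list, up to 3 per direction with the smallest p were named, and other genes were named after their values were seen. The members and lists were chosen with earlier results of these data known. The calculations were tested on simulated data. Linear sums add 2 to the power of each log2 signal.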

Additional observations from a re-analysis of the deposited data

How the results depend on the processing

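Over 14 alternatives, 17 of the 25 called members passed with the same sign in every alternative that tested them, and 8 (Apc, Axin1, Axin2, Fzd1, Fzd2, Fzd7, Gsk3b and Wnt11) lost the threshold in at least 1. Members called higher numbered 9 to 15 and those called lower 9 to 14, against 13 and 12. With single arrays left out the ranges were 9 to 14 and 9 to 13. The median difference of the members ranged from -0.031, with the arrays centred on the median of tested probe sets, to 0.070. That centring shifted all tested genes by a median of -0.064 and the spike-in scaling by -0.010. Without a variance trend 9 members rose and 9 fell, and 12 of the other destruction complex genes and scaffolds were called in place of 19. Fzd1 was reversed, at -0.030, when the mean of its probe sets was used (limma adjusted p = 0.627); its dimmer probe set has the opposite sign. With the replicate number as a replicate block, 13 members rose and 10 fell, Wnt7a passed, and Apc, Gsk3b and Wnt11 did not. Deviations of same-numbered arrays correlated at -0.134, -0.0615 and 0.0307, so the numbers were not taken as pairs. The normalization of the arrays could not be redone, and signal over background was not measured.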

Other observations

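Several values outside the comparisons above were chosen after they were seen. Frat1, a relative of Frat2 that also binds Gsk3, had log2 signals of 7.38, 10.21 and 7.32 in shRNA samples, against 7.11, 7.22 and 7.20 in controls, so its mean difference of 1.13 (limma adjusted p = 0.0973) rests on shRNA array 2. Msx2, a homeobox gene reported as a Wnt target, had 9.52, 9.65 and 8.86 in shRNA samples, against 8.73, 8.69 and 8.75 in controls, with shRNA array 3 close to the controls (0.62, limma adjusted p = 0.00414). Prickle2, a planar polarity gene below the filter, averaged 6.10 ± 0.12 in shRNA samples and 5.05 ± 0.34 in controls (log2 signal, SD, n = 3 each), while its relative Prickle1 averaged 10.37 ± 0.12 in shRNA samples and 11.31 ± 0.075 in controls (limma adjusted p = 7.95e-08).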
